A study of Mus musculus with 5 samples.

Results

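Pericytes and myofibroblasts of the kidney were followed through 10 genes, chosen by name from the 35478 genes listed for each kidney: the ligand Pdgfb, the receptors Pdgfra and Pdgfrb, the contractile genes Acta2, Tagln, Myh11 and Cnn1, the intermediate filament genes Des and Vim, and the transcription factor Meox1. RNA was sequenced from the injured kidney of each of 2 mice of the genotype Prdm16fl/fl and 3 of the genotype Ksp-Cre/Prdm16fl/fl, 11 days after UIRI, a unilateral injury by ischemia and reperfusion. The left renal pedicle was clamped for 35 minutes at 38.5°C, and the right kidney was removed at day 10. The mice were male littermates aged 7 to 8 weeks of the strain C57BL/6J;129, although the sample titles name C57BL/6J alone, and the methods give the kidney cortex as the tissue. Both groups carried 2 floxed Prdm16 alleles and both had been injured, so the only labelled difference was the Ksp-Cre transgene. Ksp-Cre expresses Cre recombinase from the promoter of kidney-specific cadherin, which is active in tubular epithelium, and not in the interstitial and vascular cells in which most of the 10 genes are usually expressed. No uninjured library was analysed here, so the values compare genotypes within injured kidneys only. The mice of each group were numbered 1 and 3 and 1, 2 and 3, as in the labels, and the groups are called fl/fl and Ksp-Cre below.

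Pericytes and vascular smooth muscle cells wrap capillaries and arterioles, and kidney fibroblasts lie between the tubules. Endothelial cells, macrophages and injured tubular cells release PDGF-B, which binds PDGF receptor β on these mesenchymal cells, while PDGF receptor α marks fibroblasts in particular. After injury both cell types can become myofibroblasts, which take up α-smooth muscle actin (Acta2) and deposit collagen. The contractile genes, among them smooth muscle myosin heavy chain (Myh11), calponin (Cnn1) and transgelin (Tagln), are activated by serum response factor (SRF) and its myocardin-related cofactors through a DNA element called the CArG box. Vim is found in nearly all mesenchymal cells and blood cells and is taken up by injured tubular cells, whereas Des is found in muscle, pericytes, mesangial cells and injured podocytes. Meox1 is a homeobox factor of the embryonic somites that is known to be switched on in activated fibroblasts.

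Total counts were 14939040 to 16425161 per library, and 21881 to 22245 genes had a count. The 16394 genes that passed a filter on low counts were scaled by TMM (the trimmed mean of M values) and tested with edgeR's quasi-likelihood test, with p-values adjusted by Benjamini-Hochberg across them. With all 5 mice 17 genes were higher and 143 lower in Ksp-Cre kidneys at an adjusted p under 0.05, which is 0.104% and 0.872% of the genes tested, 0.976% together. Ksp-Cre mouse 3 stood apart: without it 1266 genes were higher and 1787 lower (7.82% and 11.0% of 16196 genes), and without any 1 of the other mice 0 genes passed. Each tested member, and the count of called genes in each list, is therefore given with and without Ksp-Cre mouse 3. This mouse was singled out after these counts of called genes were seen. The p-values and calls without it thus follow a choice made on the outcome. Over all genes, 54.0% had a log2 fold change above 0 with all 5 mice. Prdm16 itself, counted over the whole gene and all cells, was 25.28 and 20.02 CPM in fl/fl kidneys against 17.0 to 18.0 CPM in Ksp-Cre kidneys (adjusted p = 0.259, edgeR).

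Compared per length, in the deposited TPM values, which scale each count by gene length, the 10 genes differed widely in level. Vim was the highest, with a mean over all 5 kidneys of 177 TPM and no kidney under 130 TPM. Acta2 followed at 39.4 TPM, Pdgfb at 32.0 TPM and Pdgfrb at 24.0 TPM. The ranges of Acta2 and Pdgfb overlapped, as did those of Pdgfb and Pdgfrb, but in every kidney Acta2 stood above Pdgfrb, by 1.31 to 1.94 times. Pdgfra at 11.3 TPM and Des at 11.0 TPM could not be ordered. Myh11 at 5.53 TPM, Meox1 at 3.57 TPM and Cnn1 at 1.34 TPM came next, and the lowest was Tagln, at 0.680 TPM. The counting error of a log2 difference between the groups, which covers the sampling of reads only, was 0.03 to 0.09 for the 7 highest genes. It was 0.18 for Meox1, 0.30 for Cnn1, with 10 to 28 counts per library, and 0.50 for Tagln.

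**Figure D1:**
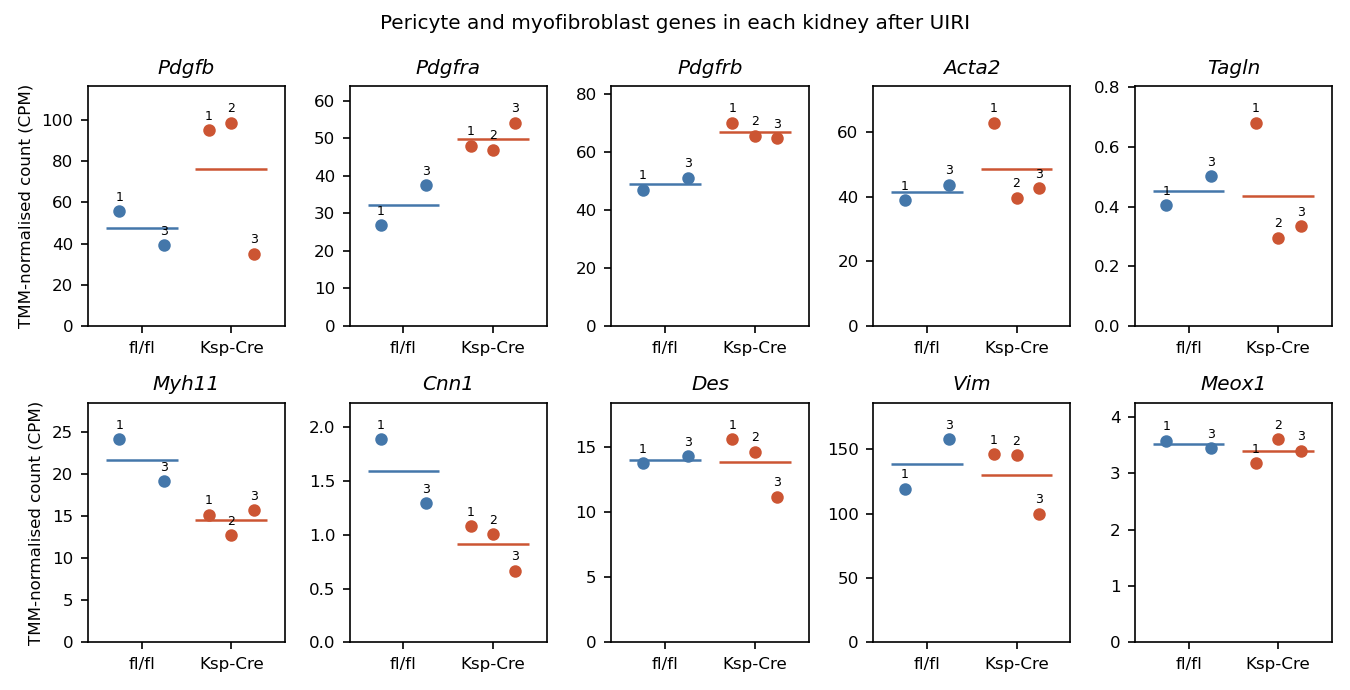
Level of each of the 10 genes in each kidney, in TMM-normalised counts per 1000000 (CPM, linear axes starting at 0, a separate axis per gene). Points are mice, numbered as in the labels, blue for fl/fl and red for Ksp-Cre, and lines are group means. Pdgfra and Pdgfrb are above both fl/fl kidneys in all 3 Ksp-Cre kidneys, Myh11 and Cnn1 are below, and Pdgfb is split within the Ksp-Cre group.

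Of the 10 genes, 9 passed the filter and 0 of the 9 passed an adjusted p of 0.05 in either direction. Unadjusted, 2 were higher (Pdgfra and Pdgfrb) and 1 was lower (Myh11) at a p under 0.05, where 7.64% of all genes tested were higher and 11.2% lower at that level. In TMM-scaled counts all 3 Ksp-Cre kidneys lay above both fl/fl kidneys for 2 genes and below both for 2 genes, Myh11 and Cnn1. Among all genes 20.3% were above and 21.3% below in this way. The median log2 fold change, Ksp-Cre minus fl/fl, was -0.019 over the 9 genes and 0.038 over all 16394. Fold changes of both signs were found among them: the receptors and Pdgfb had the highest fold changes, Myh11 and Cnn1 the lowest, and Des, Vim and Meox1 lay near 0. In RNA of whole cortex tissue, fewer cells of a type and less RNA per cell cannot be told apart.

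**Figure D2:**
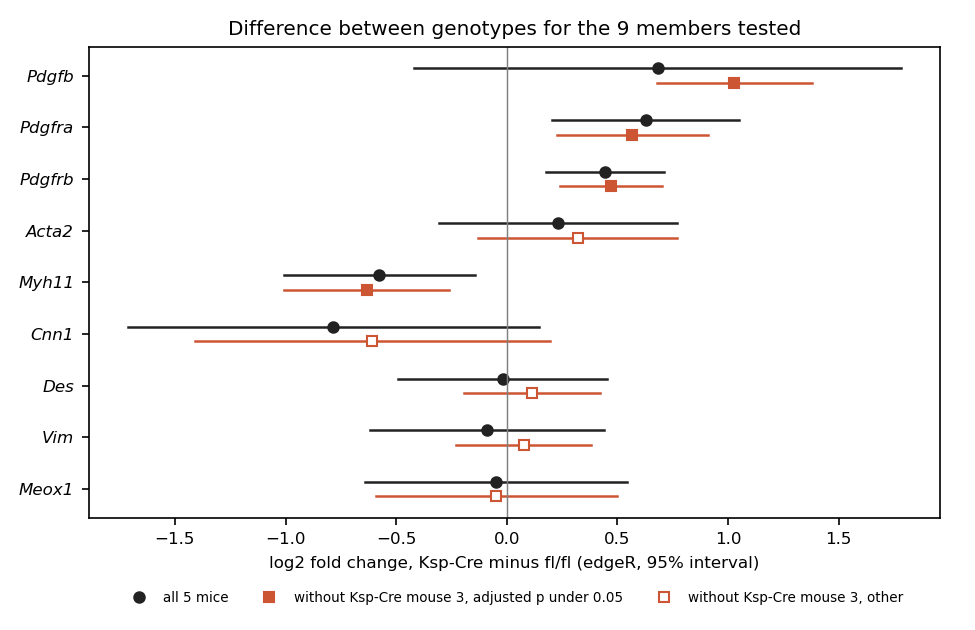
Log2 fold change of the 9 genes tested (Ksp-Cre minus fl/fl, edgeR) with its 95% interval, with all 5 mice (black circles) and without Ksp-Cre mouse 3 (red squares, filled where the adjusted p was under 0.05). The intervals of Pdgfra, Pdgfrb and Myh11 leave out 0 in both fits, and that of Pdgfb does so only without mouse 3.

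Pdgfb encodes the B chain of platelet-derived growth factor, the ligand that recruits pericytes to vessels. It was 55.8 and 39.3 CPM in fl/fl mice 1 and 3 and 95.03, 98.7 and 35.0 CPM in Ksp-Cre mice 1, 2 and 3. Ksp-Cre mice 1 and 2 were the highest of the 5 kidneys and Ksp-Cre mouse 3 was the lowest, so the groups overlapped. The means were 47.5 ± 11.6 CPM (SD, n = 2) and 76.2 ± 35.8 CPM (SD, n = 3), a log2 fold change of 0.68 with a 95% interval of -0.42 to 1.78 (adjusted p = 0.465, edgeR). Without Ksp-Cre mouse 3 it was 1.03, with an interval of 0.68 to 1.38 (adjusted p = 0.00342, edgeR). Pdgfb was then called higher, as were 7.82% of all genes in that fit. Endothelial cells are a known source of PDGF-B, but the 12 endothelial markers summed to 383 and 366 TPM in fl/fl kidneys and to 475, 397 and 540 TPM in Ksp-Cre mice 1, 2 and 3, so mouse 3, the lowest for Pdgfb, was the highest for these markers. The ratio of Pdgfb to the endothelial marker Pecam1, in TPM, was 0.811 and 0.583 in fl/fl kidneys and 1.38, 1.504 and 0.381 in Ksp-Cre kidneys. The 12 macrophage markers summed to 1885 and 2462 TPM in fl/fl kidneys and to 3654, 3351 and 1719 TPM in Ksp-Cre kidneys, with mouse 3 the lowest of the 5. The most abundant of them, Lyz2, was at 1008 and 1410 TPM against 1960, 1771 and 518 TPM. By the median over the 12 markers of the log2 difference from the fl/fl mean, fl/fl mouse 1 was the lowest (-0.198). Ksp-Cre mouse 3 was at -0.096, so its place depended on the measure. The ratio of Pdgfb to the macrophage marker Adgre1, in TPM, was 1.01 and 0.637 in fl/fl kidneys and 1.21, 1.27 and 1.87 in Ksp-Cre kidneys, so against this marker mouse 3 was the highest. The part of these cells in the Pdgfb values was not tested.

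Pdgfrb encodes PDGF receptor β, the receptor of PDGF-B on pericytes, mesangial cells and fibroblasts. It was 47.0 and 51.2 CPM in the fl/fl kidneys and 70.1, 65.6 and 64.7 CPM in the Ksp-Cre kidneys. The 3 Ksp-Cre kidneys were all higher than both fl/fl kidneys, and the kidneys of a group lay close together. The means were 49.1 ± 2.95 CPM (SD, n = 2) and 66.8 ± 2.90 CPM (SD, n = 3), which is 1.36-fold, with an interval of 1.13 to 1.64 (log2 fold change 0.44, standard error 0.11). The unadjusted p was 0.0064 and the adjusted p was 0.113 (edgeR), so the difference did not pass over all genes. The fit without Ksp-Cre mouse 3 gave 0.47 (adjusted p = 0.0151, edgeR).

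Pdgfra encodes PDGF receptor α, found on kidney fibroblasts. It was 26.9 and 37.5 CPM in the fl/fl kidneys and 48.0, 46.9 and 54.2 CPM in the Ksp-Cre kidneys. Again the groups did not overlap, and here Ksp-Cre mouse 3 was the highest rather than the lowest. The means were 32.2 ± 7.46 CPM (SD, n = 2) and 49.7 ± 3.91 CPM (SD, n = 3), which is 1.54-fold, with an interval of 1.15 to 2.07 (log2 fold change 0.63, standard error 0.17, adjusted p = 0.138, edgeR). It was 0.57 in the fit that left out Ksp-Cre mouse 3 (adjusted p = 0.0326, edgeR). Across the alternatives run, the log2 fold change stayed above 0 for both receptors, between 0.38 and 0.68 for Pdgfrb and between 0.40 and 0.88 for Pdgfra. The ratio of Pdgfra to Pdgfrb, in TPM, was 0.377 and 0.482 in fl/fl kidneys and 0.451, 0.471 and 0.551 in Ksp-Cre kidneys, ranges that overlapped. The ratio of Pdgfb to Pdgfrb was 1.42 and 0.923 against 1.63, 1.81 and 0.649, so ligand and receptor did not keep a fixed proportion between kidneys.

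Acta2 encodes α-smooth muscle actin, the protein by which myofibroblasts are usually recognised, and is expressed by arteriolar smooth muscle as well. It was 39.0 and 43.8 CPM in the fl/fl kidneys and 63.1, 39.8 and 42.8 CPM in the Ksp-Cre kidneys. Ksp-Cre mouse 1 alone was high, and Ksp-Cre mice 2 and 3 lay between the fl/fl kidneys. The means were 41.4 ± 3.35 CPM (SD, n = 2) and 48.6 ± 12.7 CPM (SD, n = 3), a log2 fold change of 0.23 with an interval of -0.31 to 0.77 (adjusted p = 0.612, edgeR). Without Ksp-Cre mouse 1 the log2 fold change was -0.0024 (adjusted p = 0.995, edgeR), so the difference rested on that kidney. Without Ksp-Cre mouse 3 it was 0.32 (adjusted p = 0.288, edgeR). With all mice the interval covered changes from 0.808-fold to 1.70-fold.

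Part of the Acta2 promoter is shown because SRF binding to it is the textbook route to Acta2 expression in myofibroblasts. It was read from RefSeq promoters on GRCm38.p6, chr19:34255378-34255539, minus strand, a build whose coordinates differ from those in the files, and it ends before the start site. Capitals mark an MCAT element, the binding site of TEAD factors (CATTCC or GGAATG), at position -146 from the start site, and CArG-type boxes at -84 and -34.
Acta2: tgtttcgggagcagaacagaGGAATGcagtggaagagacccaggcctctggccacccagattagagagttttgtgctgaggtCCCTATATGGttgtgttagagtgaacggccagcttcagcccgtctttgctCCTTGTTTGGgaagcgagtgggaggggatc
A CArG box was taken as CC, 6 letters that are A or T, and GG, read on both strands since the pattern is its own reverse. Neither Acta2 box follows it fully, as each has 1 letter among the 6 that is C or G. Of 32851 promoter windows of 300 bases (250 before the start site and 50 after), 1.63% held a full CArG box, 8.50% a box with 1 such departure, and 14.7% an MCAT element. The table holds windows for 5 of the 10 members, Acta2, Pdgfra, Cnn1, Des and Vim, and none of the other 4 had any of these elements in its window. A match is a letter pattern and not a measured binding site.

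Myh11 encodes the smooth muscle myosin heavy chain, which marks mature smooth muscle and is low in myofibroblasts. It was 24.1 and 19.2 CPM in the fl/fl kidneys and 15.2, 12.7 and 15.7 CPM in the Ksp-Cre kidneys. In CPM all Ksp-Cre kidneys were lower than both fl/fl kidneys, whereas in TPM the groups overlapped (5.32 in fl/fl mouse 3 and 5.42 in Ksp-Cre mouse 1). The means were 21.6 ± 3.52 CPM (SD, n = 2) and 14.5 ± 1.61 CPM (SD, n = 3), which is 0.671-fold, with an interval of 0.497 to 0.905 (log2 fold change -0.58, standard error 0.18, unadjusted p = 0.0169, adjusted p = 0.167, edgeR). Without Ksp-Cre mouse 3 the log2 fold change was -0.63 (adjusted p = 0.0304, edgeR). Myh11 was then called lower, as were 11.0% of all genes in that fit. The ratio of Acta2 to Myh11, in TPM, was 4.28 and 6.05 in fl/fl kidneys and 11.0, 8.30 and 7.20 in Ksp-Cre kidneys. This ratio needs no scaling between libraries, and all 3 Ksp-Cre kidneys stood above both fl/fl kidneys. The ratio was not tested, and with 10 splits of 2 against 3 mice an exact permutation test of it cannot give a p under 0.1.

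Cnn1 encodes calponin, an actin-binding protein of contractile smooth muscle. Its counts were 28 and 18 in the fl/fl kidneys and 19, 17 and 10 in the Ksp-Cre kidneys, or 1.89 and 1.29 against 1.08, 1.004 and 0.666 CPM. In CPM the Ksp-Cre kidneys were again all lower, with mouse 3 the lowest, whereas in raw counts and in TPM the groups overlapped. The log2 fold change was -0.78 with an interval of -1.71 to 0.15 (adjusted p = 0.332, edgeR), and -0.61 without Ksp-Cre mouse 3 (adjusted p = 0.259, edgeR). The ratio of Acta2 to Cnn1, in TPM, was 15.4 and 25.3 in fl/fl kidneys and 43.7, 29.6 and 48.0 in Ksp-Cre kidneys, also without overlap, though it rests on few Cnn1 counts.

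Tagln encodes transgelin, one of the most abundant proteins of smooth muscle, yet it was the lowest of the 10 genes. Its counts were 6 and 7 in the fl/fl kidneys and 12, 5 and 5 in the Ksp-Cre kidneys, and it failed the filter on low counts. The TPM ratio of Acta2 to Tagln was 48.8 to 75.4 over the 5 kidneys. In the files Tagln has 5 merged exons on chromosome 9 (45840926 to 45847356, minus strand). Of their 1586 bases, 1361 (85.8%) are also exon bases of Pcsk7, a proprotein convertase gene on the plus strand. Such sharing is rare: of 17600 protein-coding genes with a count, 72.5% shared no exon base with another gene and 1.05% shared over 50% of their exon bases. Among the other members Des shared 222 bases (7.24%) with Gm15179, and the remaining 8 shared 0.

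The notes of the submitters name featureCounts as the counter, and neither these notes nor the methods say whether strand was used. Without strand, reads from the shared bases cannot be assigned to 1 of the 2 genes, and 225 bases of Tagln are not shared. Pcsk7 was at 44.0 and 41.5 CPM in fl/fl kidneys and at 45.6, 40.8 and 42.4 CPM in Ksp-Cre kidneys. The deposited Tagln value is therefore given as uncertain, and it is not read here as the level of transgelin mRNA. What the sharing did to the Tagln counts was not tested. In a fit of all genes with a count, the log2 fold change of Tagln was -0.037 with a standard error of 0.61 (adjusted p = 0.978, edgeR). None of the 10 genes had a stretch of 100 bases in common with the transcripts of another gene on the same strand in the GENCODE M21 annotation.

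Des encodes desmin, the intermediate filament of muscle cells and pericytes. It was 13.8 and 14.3 CPM in the fl/fl kidneys and 15.6, 14.6 and 11.2 CPM in the Ksp-Cre kidneys. Ksp-Cre mice 1 and 2 were the highest and mouse 3 the lowest, as for Pdgfb. The log2 fold change was -0.019 with an interval of -0.49 to 0.45 (adjusted p = 0.966, edgeR), and 0.11 without Ksp-Cre mouse 3 (adjusted p = 0.587, edgeR). Pdgfrb, which like Des marks pericytes and mesangial cells, was at 0.44, and the difference between both values was not tested.

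Vim encodes vimentin, the intermediate filament of mesenchymal cells, leukocytes and injured tubules. It was 119 and 158 CPM in the fl/fl kidneys and 146, 145 and 99.9 CPM in the Ksp-Cre kidneys. Ksp-Cre mice 1 and 2 lay between the fl/fl kidneys and mouse 3 below both. The log2 fold change was -0.088 with an interval of -0.62 to 0.44 (adjusted p = 0.858, edgeR), and 0.08 without Ksp-Cre mouse 3 (adjusted p = 0.731, edgeR). The ratio of Vim to Des, in TPM, was 14.5 and 18.5 in fl/fl kidneys and 15.6, 16.6 and 14.9 in Ksp-Cre kidneys, and these ranges overlapped. The 8 tubular injury markers had a median log2 fold change of 0.98 in TMM-scaled counts. They summed to 2811 and 1985 TPM in fl/fl kidneys and 6330, 5618 and 5464 TPM in Ksp-Cre kidneys. Of these sums Clu alone made up 1775 and 1115 TPM in fl/fl kidneys and 4037, 3263 and 2572 TPM in Ksp-Cre kidneys. On the TPM scale 39.5% of all genes lay above both fl/fl kidneys in all Ksp-Cre kidneys, and Vim was at 0.14.

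Meox1 encodes a homeobox factor. It was 3.57 and 3.44 CPM in the fl/fl kidneys and 3.18, 3.60 and 3.40 CPM in the Ksp-Cre kidneys. The Ksp-Cre kidneys lay on both sides of the fl/fl kidneys, and the whole range was 0.18 on the log2 scale, the narrowest of the 10 genes. The counting error of the difference between the groups alone was 0.18 on that scale, at 48 to 61 counts per library. The log2 fold change was -0.048 with an interval of -0.64 to 0.54 (adjusted p = 0.930, edgeR), which covers changes from 0.642-fold to 1.46-fold. Leaving out Ksp-Cre mouse 3 gave -0.047 (adjusted p = 0.910, edgeR). Its paralogue Meox2 had 0 counts in all 5 libraries.

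The direction of the genes near 0 depended on the scale. TPM divides each kidney by its own total and so carries no correction of the TMM kind, whose factors were 0.934 to 0.976 in fl/fl kidneys and 0.971 to 1.07 in Ksp-Cre kidneys. On log2(TPM + 0.1), tested with limma, the median of all genes was 0.25 rather than 0.038, and all 3 Ksp-Cre kidneys stood above both fl/fl kidneys for 39.5% of genes and below for 10.4%. Des, Vim and Meox1 were then at 0.20, 0.14 and 0.18, values above 0 but under that median. Acta2 was at 0.44, with all 3 Ksp-Cre kidneys above both fl/fl kidneys (adjusted p = 0.280, limma), whereas in TMM-scaled counts the groups overlapped. Pdgfra and Pdgfrb were at 0.87 and 0.68 (adjusted p = 0.0885 and 0.0951, limma). Myh11 and Cnn1 were at -0.33 and -0.52, and their groups now overlapped. Less the median of all genes, the TPM values of Acta2, Pdgfra, Pdgfrb and Myh11 were 0.19, 0.62, 0.43 and -0.58. With scaling by library size alone the median of all genes was 0.15, and 27.5% of 51 called genes were higher, against 10.6% of 160 with TMM and 25.5% of 1210 with DESeq2.

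**Figure D3:**
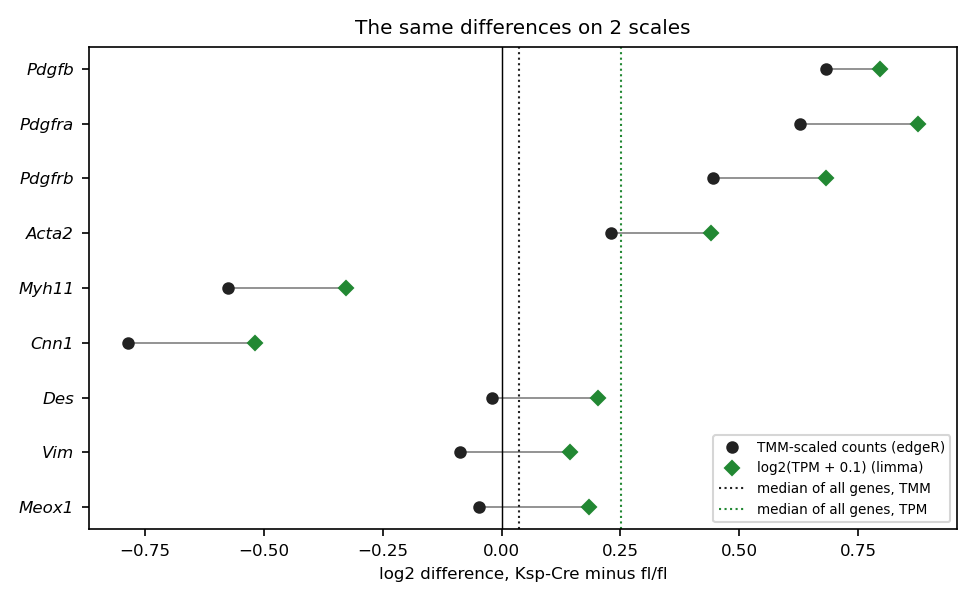
Log2 difference of each of the 9 genes tested, Ksp-Cre minus fl/fl, from TMM-scaled counts (black circles) and from log2(TPM + 0.1) (green diamonds). Dotted lines give the median of all genes on each scale, 0.038 and 0.25, and every gene lies further to the right on the TPM scale, with Des, Vim and Meox1 crossing 0 and Pdgfb shifting least.

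The other genes of these pathways were read from 9 lists that leave out the 10 members. Of 13 genes for PDGF ligands and signalling, 0 passed the adjusted p and 11 had a fold change above 0, against 54.0% of all genes. The median log2 fold change was 0.39 against 0.038 for all genes, and for 7 of the 13 all Ksp-Cre kidneys were above both fl/fl kidneys, against 20.3% of all genes. The 3 most abundant were Stat3, a transcription factor that PDGF receptors activate, at 0.52 (adjusted p = 0.230, edgeR), the adaptor Grb2 at 0.18 (adjusted p = 0.385, edgeR) and the adaptor Shc1 at 0.39 (adjusted p = 0.315, edgeR). Without Ksp-Cre mouse 3, 5 of the 13 were called higher, against 7.82% of all genes in that fit, among them the ligands Pdgfa and Pdgfd, named here after their values were seen.

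Of 19 smooth muscle contractile genes tested, 0 passed, 12 were above 0 and 7 below, and the median was 0.19. It was 0.0037 without Ksp-Cre mouse 1 and 0.35 without Ksp-Cre mouse 3, so single mice set its size. The most abundant were the small heat shock protein Hspb1 at 0.995 (adjusted p = 0.0805, edgeR), the actin cross-linker Flna at 0.57 (adjusted p = 0.1995, edgeR) and the tropomyosin Tpm1 at 0.34 (adjusted p = 0.535, edgeR). These 3 are not particular to smooth muscle, since epithelial cells express them as well. Of these 19 genes 4 were above and 3 below both fl/fl kidneys in all Ksp-Cre kidneys. These counts were near the shares over all genes, 20.3% and 21.3%. When Ksp-Cre mouse 3 was left out, 7 of the 19 were called higher and 1 lower, against 7.82% and 11.0% of all genes.

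The 16 genes for SRF, the myocardin-related factors and other regulators of contractile genes had a median of 0.30, and all 16 were above 0, against 54.0% of all genes, with 0 called. When Ksp-Cre mouse 3 was left out, 4 of the 15 then tested were called higher (Fhl2, Tead1, Rhob and Rock2), against 7.82% of all genes. The GTPases Rhoa and Rhob, which drive actin assembly, were at 0.15 and 0.54 (adjusted p = 0.560 and 0.162, edgeR), and the coactivator Yap1 was at 0.16 (adjusted p = 0.497, edgeR). For 10 of the 16 all Ksp-Cre kidneys were above both fl/fl kidneys, against 20.3% of all genes. The list includes SRF and TEAD factors, which bind elements of the types shown for Acta2, beside genes such as Rhoa, Rhob and Yap1 that do not. Acta2 itself was at 0.23, a difference that rested on Ksp-Cre mouse 1. A link between the list and Acta2 was not tested.

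The 14 pericyte and mural cell markers tested had a median of 0.15, with 8 above 0, 6 below and 0 called. In the fit without Ksp-Cre mouse 3 the median was 0.28. In that fit 3 of the 14 were called higher (Rgs4, Gucy1a1 and Cd248), against 7.82% of all genes. Rgs5, a regulator of G-protein signalling that marks pericytes, was 66.5 and 71.8 CPM in fl/fl kidneys and 65.5, 67.0 and 45.2 CPM in Ksp-Cre kidneys, at -0.22 (adjusted p = 0.566, edgeR). Its Ksp-Cre mice 1 and 2 were close to the fl/fl kidneys and mouse 3 was below them, as for Vim. The adhesion molecule Mcam was at 0.66 (adjusted p = 0.261, edgeR) and the guanylate cyclase subunit Gucy1a1 at 0.41 (adjusted p = 0.510, edgeR). The summed level of the list was 126 and 110 TPM in fl/fl kidneys and 178, 175 and 117 TPM in Ksp-Cre kidneys, with mouse 3 again apart from mice 1 and 2. The 10 mesangial and renin cell markers had a median of -0.36, with 3 above 0, 7 below and 0 called. All Ksp-Cre kidneys were above both fl/fl kidneys for 2 of them and below both for 4, against 20.3% and 21.3% of all genes. Without Ksp-Cre mouse 3, 3 were called higher and 1 lower, against 7.82% and 11.0% of all genes. The most abundant were Ren1, the renin gene, at -0.17 (adjusted p = 0.854, edgeR), the protease inhibitor Serpine2 at 1.17 (adjusted p = 0.0659, edgeR) and the SRF cofactor Fhl2 at 0.55 (adjusted p = 0.249, edgeR). Serpine2 and Fhl2 were among the 3 above 0, and Fhl2 is also on the list of SRF and other regulators.

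Of the fibroblast lists, the 15 resident fibroblast markers had a median of 0.06 and 0 called. These 15 markers had a median of 0.27 without Ksp-Cre mouse 3, and 2 of them were called higher, against 7.82% of all genes. Their most abundant gene, Ly6a, is expressed by endothelial and injured tubular cells too and was at 0.05 (adjusted p = 0.943, edgeR), Nt5e was at 0.17 and Gsn at 0.06. The 17 markers of activated fibroblasts and myofibroblasts had a median of 0.65, the highest of the 9 lists. Of these 17, 16 were above 0, against 54.0% of all genes, and 0 were called. Among them Col1a2 and Col3a1, chains of the fibrillar collagens, were at 0.97 and 0.92 (adjusted p = 0.0973 and 0.218, edgeR), and Sparc, a collagen-binding matrix protein, at 0.44 (adjusted p = 0.262, edgeR). Without Ksp-Cre mouse 3, 12 of the 17 were called higher, against 7.82% of all genes, while Acta2 was not called in either fit. The summed TPM of the list was 588 and 646 in fl/fl kidneys and 1352, 1187 and 861 in Ksp-Cre kidneys, so no kidney of one group reached the other. On the TPM scale 39.5% of all genes lay above both fl/fl kidneys in all Ksp-Cre kidneys. In TMM-scaled counts 8 of the 17 were above and 1 below in this way, against 20.3% and 21.3% of all genes.

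Of the 13 intermediate filament genes tested, all were above 0, against 54.0% of all genes, with a median of 0.35. The members Des and Vim were at -0.019 and -0.088. The keratin Krt19, a filament of simple epithelia, was called higher, from 11.5 and 11.5 CPM to 49.0, 32.0 and 53.9 CPM (log2 fold change 1.97, adjusted p = 0.0412, edgeR). Krt18 was at 1.13 (adjusted p = 0.0548, edgeR), Krt8 at 0.39 and Krt7 at 0.20. With Ksp-Cre mouse 3 left out, 4 of the 13 were called higher, against 7.82% of all genes. Of 12 homeobox and mesenchymal transcription factors tested, 10 were above 0, against 54.0% of all genes, the median was 0.31 and 0 were called. Without Ksp-Cre mouse 3, 1 of the 12, Runx1, was called higher, against 7.82% of all genes. Zeb2 was at 0.21, Runx1 at 0.61 and Nfatc4 at 0.53 (adjusted p = 0.559, 0.515 and 0.245, edgeR).

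**Figure D4:**
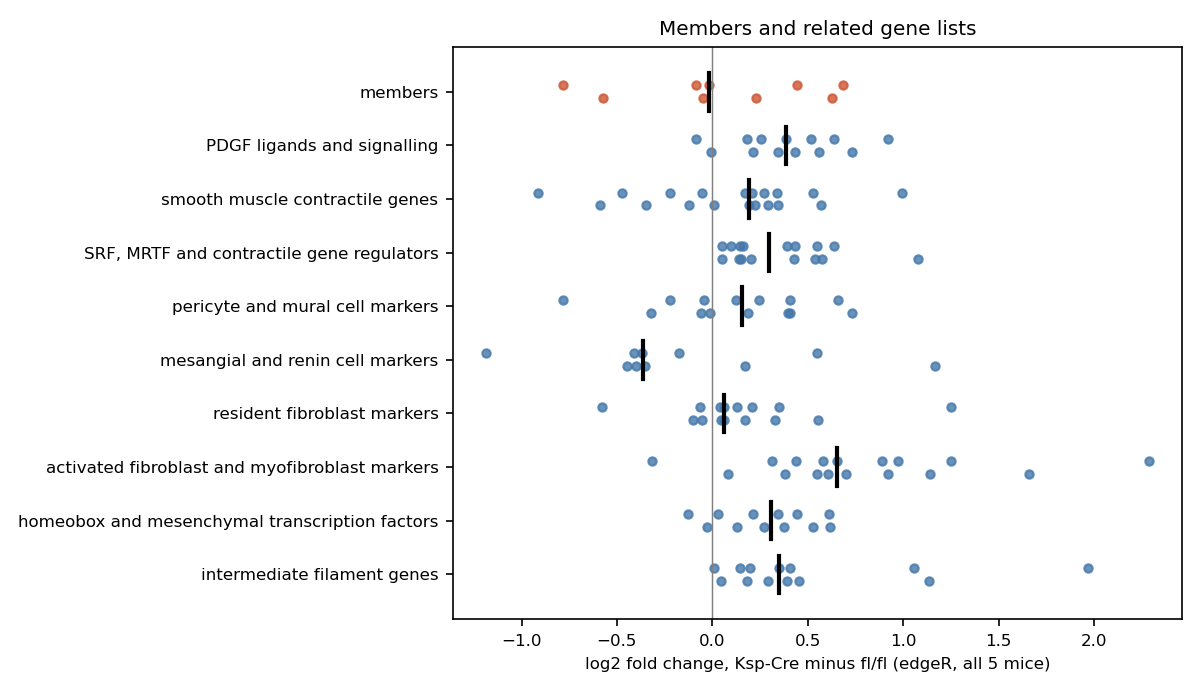
Log2 fold change (Ksp-Cre minus fl/fl, edgeR, all 5 mice) of the 9 members tested (red) and of the genes tested in each of the 9 related lists (blue); black bars are medians. The members spread on both sides of 0 with a median of -0.019, and the list of activated fibroblast and myofibroblast markers has the highest median, 0.65.

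Some lists of markers of other cells had medians far from 0 and others near it, and the part of these cells in the values was not tested. The 14 proximal tubule markers had a median of -1.40, with Acsm2 at -1.56 and Miox at -2.23 called lower (adjusted p = 0.0327 and 0.0412, edgeR). For 13 of the 14 all Ksp-Cre kidneys were below both fl/fl kidneys, against 21.3% of all genes. The 8 podocyte markers had a median of -0.74, with Nphs1 at -0.85 called lower (adjusted p = 0.0412, edgeR), and the 12 markers of the thick limb, distal tubule and collecting duct a median of -0.72. The 8 tubular injury markers had a median of 0.98, the 10 proliferation markers 0.41, the 12 macrophage markers 0.31, the 12 endothelial markers 0.10 and the 9 lymphocyte markers tested -0.22. The 5 erythroid markers had a median of 3.93 and summed to 24.1 and 34.0 TPM in fl/fl kidneys against 657, 650 and 155 TPM in Ksp-Cre kidneys. The fit without Ksp-Cre mouse 3 called 13 of the 14 proximal tubule, 6 of the 8 podocyte and 6 of the 12 thick limb, distal tubule and collecting duct markers lower, with 2 of the 12 endothelial markers. It called higher 7 of the 8 injury, 6 of the 10 proliferation, 8 of the 12 macrophage and all 5 erythroid markers, and 0 of the lymphocyte markers. Over all genes this fit called 11.0% lower and 7.82% higher. Of the genes on all lists, only Meox2 was at 0 in every library.

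The genes whose levels followed each of 3 members most closely were sought among 13994 genes whose mean log2 CPM reached 1, as the root mean square difference of centred log2 CPM over the 5 libraries. For Acta2 they were Ppp1r13l (0.071), Bcl2l14 (0.087) and the mitotic gene Birc5 (0.087), and 553 genes lay within 0.2. For Pdgfrb they were Ptpn9 (0.031), P3h1 (0.033) and Mfsd12 (0.033), and 2770 genes lay within 0.2. For Meox1, which hardly varied, they were Ssbp2 (0.022), Mvb12b (0.023) and Ighmbp2 (0.024), and 5777 genes lay within 0.2. With 5 points many genes come this close.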

How the data were processed

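Kidney RNA-seq of 5 mice was analysed, grouped by the genotype in the labels. Per the labels the submitters' processing notes name CASAVA, featureCounts 2.0.1 and DESeq2 1.16.1, and as build only hg38, a human build, so the mouse build and aligner are not given in the sources used here. The authors deposited raw counts of reads per gene, with TPM (counts scaled by gene length to a fixed total) and FPKM, also made by the authors, which was not used. Methods give oligo(dT)-selected mRNA. Libraries differed by more than counting error, so none was taken as a duplicate.

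Counts of 35478 genes (5 broken lines rejoined) were filtered with filterByExpr (minimum count 10), scaled by TMM and tested with edgeR 4.0.16 (quasi-likelihood, no covariates, R 4.3.3), and tested on simulated data first. CPM is per 1000000 TMM-scaled counts. Intervals are 95% intervals of the fit, and p-values set the genotype difference against the spread between mice, estimated with information shared across genes. Calls needed an adjusted p under 0.05. The members and lists were chosen with earlier results of these data known. Named genes were all members, called list genes, the 3 most abundant genes of a list, and the nearest 3 to Acta2, Pdgfrb and Meox1. Not all of these are printed for the cell type lists. Exon overlap was read from coordinates in the files. Alternatives were other scaling, filters, DESeq2 1.42.0, each mouse left out, the mouse number as a block and, chosen after seeing the data, limma 3.58.1 on log2(TPM + 0.1). Python 3.11.15, pandas 2.3.3 and matplotlib 3.10.9 were used.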

Additional observations from a re-analysis of the deposited data

How the results depend on the processing

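None of the 9 members tested passed an adjusted p of 0.05 in any fit except that without Ksp-Cre mouse 3. There 4 members passed, while 7.82% of all genes were called higher and 11.0% lower. That fit called 3053 genes, against 160 with all mice. Over the fits that left out 1 mouse, the median of the members ranged from -0.0619 to 0.13, against -0.019 with all mice. Called genes came to 51 with scaling by library size alone, 471 with no filter beyond 1 count, 1210 with DESeq2 and 30 with limma on log2(TPM + 0.1). With DESeq2 the lowest adjusted p of a member was 0.0577, for Pdgfrb. The median of the members was 0.10 with library size alone and 0.20 on the TPM scale. With library size alone Des, Vim and Meox1 changed sign to 0.10, 0.0385 and 0.0629, and on the TPM scale to 0.20, 0.14 and 0.18. With 1 mouse left out, Acta2 ranged from -0.0024 to 0.36, Des from -0.11 to 0.11 and Vim from -0.28 to 0.13, while the other 6 members kept their sign. The median of the resident fibroblast markers ranged from -0.0282 to 0.33 and that of the endothelial markers from -0.0072 to 0.17 over the fits that left out 1 mouse. Otherwise the medians of the 18 lists kept their sign in every fit. With the mouse number as a replicate block 0 genes were called, and the log2 fold change of Pdgfb was 0.31. The labels give mice 1 and 3 in both groups but do not say that a number marks a shared litter, and the deviations of same-numbered mice correlated across genes at 0.0010 and -0.022, so these mice were not treated as paired. Depth limited Cnn1, Meox1 and Tagln, which had 5 to 61 counts.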
